A study of Mus musculus with 6 samples.

Results

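The genes described here encode the subunits of the receptors for GABA, glycine and glutamate. They were taken from the table of medial ganglionic eminence (MGE) RNA by their gene symbols, and numbered 52 of the 34745 genes listed. The group was chosen with earlier results of these data known. The group holds 19 GABA-A, 2 GABA-B, 5 glycine, 4 AMPA, 5 kainate, 2 delta, 7 NMDA and 8 metabotropic glutamate (mGlu) receptor genes. The MGE is the ventral forebrain region where many cortical interneurons and pallidal neurons are born. RNA-seq was made from MGE of mouse embryos at embryonic day 12.5, with 3 wild type libraries and 3 libraries of Sp9-/- littermates, called Sp9 null. Sp9 encodes a zinc finger transcription factor, and all embryos were of mixed C57BL/6J, 129S6 and CD1 descent. The labels do not say how the Sp9 null allele was made, or how many embryos went into a library.

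GABA-A and glycine receptors are chloride channels made of 5 subunits, and AMPA, kainate, NMDA and delta receptors are built from 4 subunits each. GABA-B and mGlu receptors have no pore of their own and signal through G proteins. In newborn neurons, which form few synapses, GABA can depolarise the cell, and ambient GABA, glycine and glutamate are known to influence the migration of interneurons.

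Library totals ran from 6826447 to 10979280 counts. A floor of 3 counts in a library corresponded to 0.273 to 0.439 CPM, the usual scaling of a count by the total of its library. It covers counting error only. Sp9 itself lay between 189 and 247 CPM in the wild type and between 10.6 and 13.0 CPM in the Sp9 null libraries, so the labels and the targeted gene matched. The 6 MGE markers were all present and summed to 2223 to 2374 CPM in the 6 libraries, but single markers differed between the genotypes in both directions, as given beside the genotype comparison. The wild type and Sp9 null libraries with replicate number 2 stood apart from the other libraries, and each result below is given with that in view. X-linked Xist was at 2681, 2400 and 651 CPM in wild type 1, 2 and 3 and at 1406, 1012 and 2.01 CPM in Sp9 null 1, 2 and 3. The Y-linked gene Ddx3y was at 1.78, 22.2 and 52.2 CPM in wild type and 37.5, 51.6 and 55.7 CPM in Sp9 null, so the mix of sexes differed between libraries. Its part in the levels of the 6 X-linked receptor genes was not tested.

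Kainate receptor RNA was the most abundant of the 8 classes. Levels of different genes were compared as FPKM, which is scaled by gene length and library total. The order of some genes depends on the length scaling. By mean CPM in wild type, Gabra2 was at 18.7 and Gabra3 at 13.5, and Grin2b at 11.7 and Grin2d at 8.47. Gabbr1 at 197 and Gria2 at 173 CPM lay above Grik5 at 172 CPM. These orders are the reverse of those by FPKM. In Sp9 null libraries, Gabbr1, Gria2 and Grik5 were at 183, 213 and 154 CPM. Grik3 over Grik5, Gria2 over Gria4 and Grin2d over Grin1 kept their order. The 5 kainate genes summed to 70.2 ± 8.94 FPKM in wild type and 59.4 ± 11.3 FPKM in Sp9 null libraries (SD, n = 3 each). Next came the GABA-A genes with 16.6 ± 6.22 and 18.5 ± 8.13 FPKM, the AMPA genes with 16.0 ± 5.79 and 17.9 ± 6.88, and the GABA-B genes with 15.3 ± 3.64 and 14.5 ± 4.60. The differences among those 3 classes were smaller than their SDs. Glycine receptor genes summed to 4.98 ± 2.61 FPKM in wild type, NMDA genes to 3.68 ± 1.07 and mGlu genes to 3.62 ± 0.503. In bulk tissue, fewer cells of a type and less RNA per cell cannot be told apart.

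Of the 52 genes, 3 had a mean of 10 FPKM or more over the 6 libraries, 16 lay between 1 and 10, 20 between 0.1 and 1, and 13 under 0.1 FPKM. The 3 were Grik3 at 35.0, Grik5 at 23.7 and Gabbr1 at 14.4 FPKM. Grik3 ranked 1163rd among all listed genes. After these came Gria2 at 8.85, Gria4 at 5.72 and Grik2 at 4.06 FPKM. The expression filter kept 38 of the 52 genes for testing. The other 14 had at most 11 counts in any library. Among those were Gabra6, Gabrd, Gabrp, Gabrr1, Gabrr2 and Gabrr3 of the GABA-A family, and Glra1, Glra3 and Glra4 of the glycine family. Grin2a and Grin2c of the NMDA family and Grm3, Grm6 and Grm8 of the mGlu family made up the rest. Gabrp and Gabrr3 had 0 counts in every library. Gabra6, a subunit gene of cerebellar granule cells, summed to 6 counts in wild type and to 0 in Sp9 null, too few to compare.

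**Figure D1:**
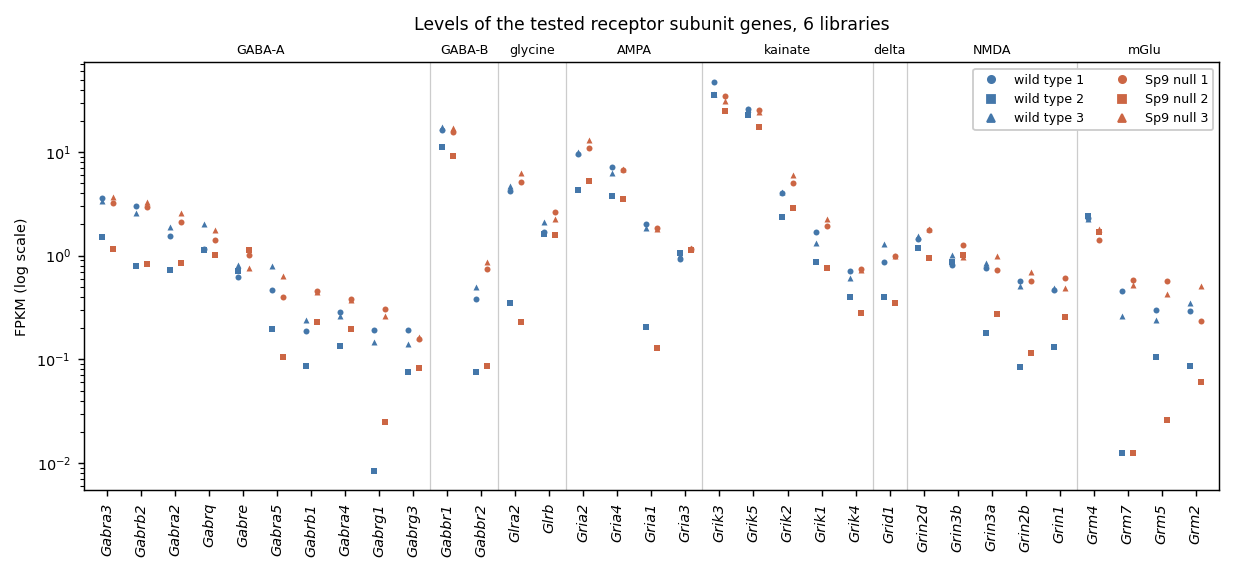
FPKM (log scale) of 33 of the 38 tested receptor subunit genes in each library, ordered by class and by mean level, with wild type in blue, Sp9 null in orange and the marker giving the replicate number. Grik3, Grik5 and Gabbr1 lie above 9 FPKM in every library, and the squares, the 2 libraries with replicate number 2, lie lowest for most genes.

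Within most classes 1 or 2 subunits made up most of the summed FPKM, a share that depends on the length scaling. Of the alpha subunit genes, which help form the GABA binding site, Gabra3 took 53.4% ± 4.48 of the summed alpha FPKM in wild type (SD, n = 3) and Gabra2 26.3% ± 1.96. In the Sp9 null libraries the same 2 alpha subunit genes led, with 47.5% ± 1.38 for Gabra3 and 33.0% ± 2.40 for Gabra2. Gabrb1 had a small share of the beta FPKM, at 2.85% ± 0.571 in wild type and 5.76% ± 0.854 in Sp9 null libraries.

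The 2 subunits of the obligate GABA-B heterodimer were very unequal. Gabbr1, which binds GABA, was at 16.1, 11.1 and 17.6 FPKM in wild type 1, 2 and 3 and at 15.5, 9.18 and 17.1 FPKM in Sp9 null 1, 2 and 3. Gabbr2, which couples to the G protein, was at 0.385, 0.0748 and 0.494 FPKM in wild type and 0.738, 0.0868 and 0.866 FPKM in Sp9 null. Gabbr1 thus exceeded Gabbr2 between 19.7-fold and 148-fold in every library, the largest ratios being those of the 2 libraries with number 2.

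Glra2, the alpha subunit gene of embryonic glycine receptors, was at 4.19, 0.349 and 4.67 FPKM in wild type and 5.16, 0.231 and 6.33 FPKM in Sp9 null 1, 2 and 3. Glrb, the beta subunit gene that links the receptor to gephyrin, was at 1.67, 1.62 and 2.09 FPKM in wild type and 2.64, 1.58 and 2.24 FPKM in Sp9 null. Glra2 was above Glrb in 4 libraries and below it in both libraries with number 2.

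Among glutamate receptors, Grik3 and Grik5 held 56.6% ± 3.32 and 35.8% ± 2.96 of the kainate FPKM in wild type. Grik3 encodes a low-affinity subunit, and Grik5 a high-affinity subunit that needs a partner of the first kind to form a channel. Of the AMPA genes, Gria2, whose product makes the channel nearly impermeable to calcium when edited, held 48.9% ± 2.89, and Gria4 36.6% ± 3.66. Grin2d held 78.7% ± 12.6 of the FPKM of the GluN2 genes, which encode the glutamate-binding NMDA subunits, and Grin2b 19.5% ± 11.3. Grin1, the subunit every NMDA receptor needs, was at 0.362 FPKM in wild type and 0.450 in Sp9 null, below Grin2d at 1.39 and 1.51. Grin1 shares 7706 bases with the antisense gene Grin1os, and Grin3b shares 2243 bases with the far more highly counted Tmem259. No source used here states the strand of the libraries, so the values of Grin1 and Grin3b are uncertain. Of the mGlu genes, Grm4 of group III, which lowers transmitter release, held 65.2% ± 12.2 of the FPKM in wild type.

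Receptor subunit RNA followed the replicate number more than the genotype. In 34 of the 38 tested genes (89.5%), the library with number 2 was the lowest of its genotype in both wild type and Sp9 null. The same held for 28.4% of all 14929 genes tested. The mean CPM of the 2 libraries with number 2, divided by that of the other 4, had a median of 0.447 over the receptor genes and 0.992 over all genes tested. The ratio was under 0.5 for 23 of 38 receptor genes (60.5%) and for 5.57% of all genes tested. These are counts over genes measured in the same libraries, and genes are not independent replicates.

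The lowest ratio was that of Grm7, a presynaptic group III mGlu receptor gene, at 0.0274. Its counts were 32, 1 and 19 in wild type 1, 2 and 3 and 29, 1 and 36 in Sp9 null 1, 2 and 3. Glra2 had a ratio of 0.0570, with 126, 12 and 146 counts in wild type and 111, 8 and 188 in Sp9 null. Gabrg1, a gamma subunit gene, had 0.0734, and Gria1, an AMPA subunit gene, had 0.0892. Gria1 counts were 229, 27 and 222 in wild type and 150, 17 and 206 in Sp9 null, so both libraries with number 2 lay far below the others. Gabbr2, Grm5, Grin2b and Grm2 lay between 0.130 and 0.211. The group I receptor gene Grm5 had 30, 12 and 25 counts in wild type and 41, 3 and 42 in Sp9 null.

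The 4 genes in which number 2 was not lowest in both genotypes were Gria3, Gabre, Grin3b and Grm4, with ratios of 1.03, 1.16, 0.924 and 1.05. Grik3 and Grik5, the highest by FPKM, had ratios of 0.815 and 0.795. Relative amounts of subunits therefore differed between libraries of 1 genotype. Gria2 exceeded Gria1 4.75-fold and 5.31-fold in FPKM in wild type 1 and 3 and 20.9-fold in wild type 2. In Sp9 null libraries the ratio was 6.00, 40.8 and 7.16 for numbers 1, 2 and 3.

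**Figure D2:**
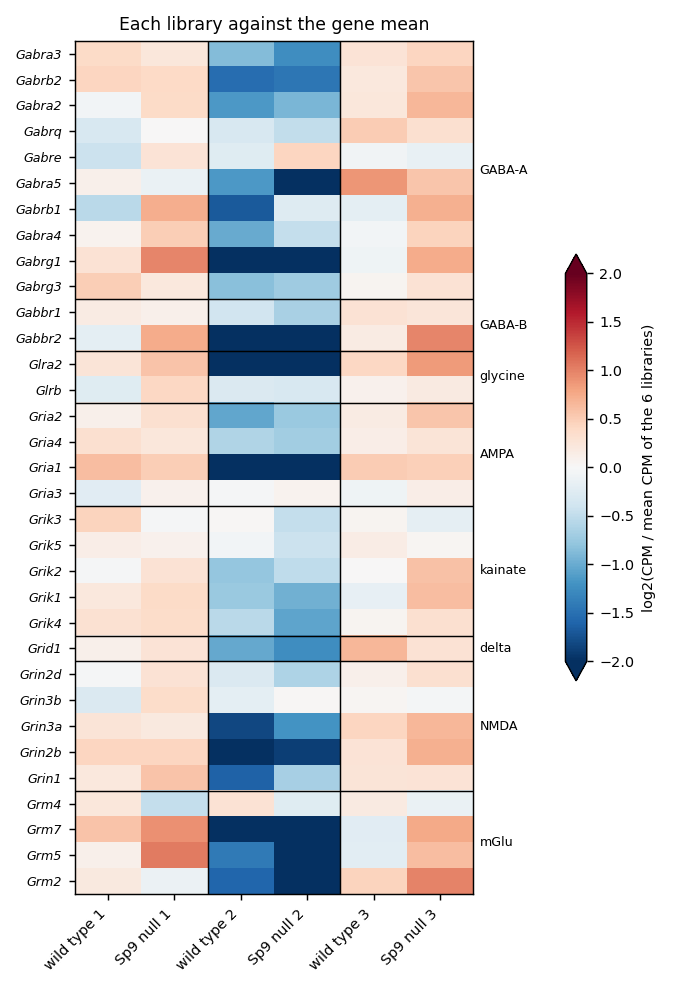
CPM of 33 of the 38 tested receptor genes in each library as log2 of its ratio to the mean of the 6 libraries, with colours limited to -2 and 2 and the libraries ordered by replicate number. The 2 columns with number 2 are blue in both genotypes for most rows, while Grik3, Gabre, Gria3, Grin3b and Grm4 are pale there.

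Other genes moved with the same libraries. The sum of 8 neuronal markers reached 2428 CPM for wild type 2 and 2013 CPM for Sp9 null 2, against 3160 to 3536 CPM elsewhere, and had a ratio of 0.655. The sum of 7 progenitor markers had a ratio of 1.28. The 6 genes of cortical glutamatergic neurons summed to 1.37 and 1.28 CPM in the libraries with number 2. In wild type 1 and 3 they summed to 16.7 and 22.9 CPM, and in Sp9 null 1 and 3 to 26.1 and 46.1 CPM. In those 4 libraries Tbr1 made up most of the sum, at 14.8 to 41.9 CPM, and Neurod6 had at most 1 count in any library. The 3 Cajal-Retzius cell markers, among them Reln, summed to 10.5 and 9.66 CPM with number 2 and to 67.6 to 130 CPM elsewhere. The 4 hypothalamic markers had a ratio of 0.594. Among them Otp had 19, 0 and 25 counts in wild type and 21, 1 and 34 in Sp9 null 1, 2 and 3, while Fezf1 had a ratio of 0.933. The sum of the 6 MGE markers had a ratio of 0.984, but single markers differed. The ratio was 0.513 for Lhx8, 0.758 for Gad1 and 0.875 for Lhx6. It was 1.06 for Dlx5, 1.085 for Nkx2-1 and 1.19 for Dlx2. The part of these cells in the receptor levels was not tested.

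**Figure D3:**
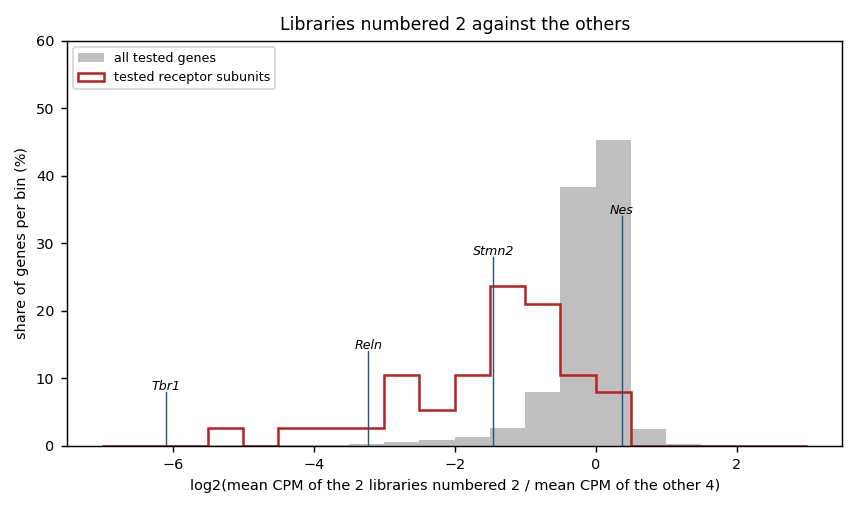
Share of genes, in percent per bin, by log2 of the ratio between the mean CPM of the 2 libraries with number 2 and that of the other 4, for all tested genes (grey) and for the tested receptor genes (red outline). Blue lines place Tbr1, Reln, Stmn2 and Nes, and their height has no meaning. The receptor genes, with a median ratio of 0.447, lie left of most genes.

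The comparison of Sp9 null with wild type asks which receptor genes depend on Sp9 in the MGE. Without regard to the replicate number, 0 of the 38 tested receptor genes were called by the quasi-likelihood test of edgeR at an adjusted p under 0.05, adjusted over all 14929 genes tested, of which 0.147% were called. At an unadjusted p under 0.05 there were 3, namely Gabrb1, Grik3 and Grm4. DESeq2 without the block and limma on FPKM also called 0. The standard error of the log2 fold change had a median of 0.452 over the receptor genes and of 0.154 over all genes tested. The widest intervals included that of Glra2, with a log2 fold change of 0.35 and a 95% interval from -2.71 to 3.42.

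Deviations from the genotype mean correlated most between the 2 libraries numbered 2 (0.754). Wild type 3 correlated by 0.568 with Sp9 null 3, but wild type 1 by 0.342 with Sp9 null 1 and 0.379 with Sp9 null 3. Numbers 1 and 3 are therefore less surely pairs. The labels do not say what a number marks, so the block was chosen from the data that it tests. A model that takes the number as a block compares each Sp9 null library with the wild type library of its number. With the block, 4 of 38 receptor genes were called (10.5%), against 4.0% of all genes tested. The call rule was again an edgeR adjusted p under 0.05. Gabrb1, Gria2 and Grik2 rose, where 2.22% of all genes rose, and Grik3 fell, where 1.78% fell. Whether 4 of 38 exceeds the share among all genes was not tested. None of the 4 calls was kept without pair 2, the pair that stood apart, where adjusted p was 0.0594 to 0.142. Their log2 fold changes kept their direction there. Marker genes of the MGE and of other cells also differed between the genotypes in the edgeR fit with the block, while 0 of the tested marker genes was called without it. Of the 6 MGE markers, Gad1 fell by 0.80 (adjusted p = 3.15e-10) and Lhx6 fell by 0.45 (adjusted p = 6.01e-06) on the log2 scale, and Dlx2 rose by 0.39 (adjusted p = 3.91e-05), each with groups that did not overlap. Of the 8 neuronal markers, Tubb3 fell by 0.40 (adjusted p = 5.58e-05) and Elavl4 rose by 0.32 (adjusted p = 0.0203). Of 7 markers of the lateral ganglionic eminence, Foxp1, Meis2 and Six3 rose. The others on that list were not called, with log2 fold changes of -0.35 for Zfp503, -0.32 for Ebf1, -0.09 for Gsx2 and 0.08 for Isl1. The list summed to 356 to 373 CPM in wild type and 387 to 437 CPM in Sp9 null, and Meis2 was its most abundant gene (mean 173 and 203 CPM). Pdgfra, 1 of 3 oligodendrocyte precursor markers, fell by 0.45 (adjusted p = 0.0195), and Trp73, 1 of 3 Cajal-Retzius markers, rose by 0.77 (adjusted p = 0.0258). DESeq2 with the block kept the calls of Gad1, Lhx6, Dlx2 and Tubb3. It did not keep those of Elavl4, Foxp1, Meis2, Six3, Pdgfra and Trp73 (adjusted p = 0.0903 to 0.655). The Trp73 call was also lost with any pair left out (edgeR adjusted p = 0.0585 to 0.346). Without pair 2, the edgeR calls of Tubb3, Elavl4, Foxp1, Meis2, Six3 and Pdgfra were lost as well (adjusted p = 0.110 to 0.531). Those of Gad1, Lhx6 and Dlx2 were kept there (edgeR adjusted p = 0.000171 to 0.0455). For progenitor, hypothalamic, endothelial and erythroid markers 0 were called. Tbr1, 1 of only 2 tested markers of cortical glutamatergic neurons, had a log2 fold change of 0.81 under the block (standard error 0.19, edgeR adjusted p = 0.0238). Tbr1 had 141, 7 and 200 counts in wild type and 159, 1 and 395 in Sp9 null 1, 2 and 3. Its log2 fold change was 0.45 without pair 3 (edgeR adjusted p = 0.669) and 0.12 by DESeq2 with the block (standard error 0.86, adjusted p = 1). All 5 microglial markers had negative log2 fold changes with the block. P2ry12, Cx3cr1, Csf1r and Aif1 were called, and C1qa was not (-0.89, edgeR adjusted p = 0.252). DESeq2 with the block kept the calls of P2ry12, Cx3cr1 and Csf1r but not that of Aif1 (adjusted p = 0.589). The Aif1 call was also lost without pair 2 or 3 (edgeR adjusted p = 0.422 and 0.321). The 5 markers summed to 26.9 to 32.2 CPM in wild type and to 7.32 to 12 CPM in Sp9 null. The part of any of these cells in the receptor differences was not tested. The standard error of the receptor genes had a median of 0.181 with the block.

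Grik3, the most abundant receptor gene, was lower in Sp9 null. It lies on chromosome 4 (125490700 to 125714173 of GRCm38). It was at 426, 321 and 325 CPM in wild type 1, 2 and 3 and at 310, 225 and 277 CPM in Sp9 null 1, 2 and 3. Every Sp9 null library lay below every wild type library. The means were 357 ± 59.7 and 271 ± 42.9 CPM (SD, n = 3). The log2 fold change was -0.38 (standard error 0.06), with an edgeR adjusted p = 7.24e-05 under the block and 0.801 in the fit without it. The call was kept by DESeq2 with the block (adjusted p = 0.00174) and without pair 1 or 3, and lost without pair 2 (log2 fold change -0.33, at an edgeR adjusted p = 0.0796).

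Grik2, which encodes another kainate subunit of the same low-affinity kind, moved the other way. It lies on chromosome 10 (49099460 to 49788766). Its levels were 46.1, 27.5 and 47.4 CPM in wild type and 57.6, 33.2 and 70.2 CPM in Sp9 null 1, 2 and 3. Within each number the Sp9 null library was higher, while the groups overlapped through the libraries with number 2. The log2 fold change was 0.42 (standard error 0.09), with an edgeR adjusted p = 0.00290 under the block and 0.915 in the fit without it. It was also not called without pair 3 (log2 fold change 0.31, edgeR adjusted p = 0.268) or by DESeq2 with the block (0.42, adjusted p = 0.165). The FPKM ratio of Grik3 to Grik2 was 11.9, 15.1 and 8.86 in wild type and 6.95, 8.75 and 5.10 in Sp9 null, so each Sp9 null library was below each wild type library. This ratio was formed after the values were seen and is given without a test. The other kainate genes did not pass, and Grik5 had a blocked log2 fold change of -0.15 (standard error 0.06), at an edgeR adjusted p = 0.192. Grik5 was at 178, 157 and 180 CPM in wild type and 173, 121 and 168 CPM in Sp9 null. For Grik1 and Grik4 the log2 fold changes without the block were 0.35 (standard error 0.42) and 0.03 (standard error 0.40).

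Gria2 rose among the AMPA genes. It lies on chromosome 3 (80681450 to 80802835). It was at 208, 93.9 and 216 CPM in wild type and at 240, 115 and 285 CPM in Sp9 null 1, 2 and 3. As for Grik2, each Sp9 null library was above the wild type library of its number and the groups overlapped. The log2 fold change was 0.32 (standard error 0.06), with an edgeR adjusted p = 0.000754 under the block and 0.962 in the fit without it. DESeq2 with the block kept the call (adjusted p = 0.0207), and it was lost without pair 3 (log2 fold change 0.26, edgeR adjusted p = 0.164). Gria1 had a log2 fold change of -0.13 (standard error 0.15 under the block). Gria4 was at 43.9, 23.1 and 38.7 CPM in wild type and 41.2, 21.7 and 42.2 CPM in Sp9 null, with a log2 fold change of 0.006 (95% interval -0.19 to 0.20 with the block). X-linked Gria3 was at 17.0, 19.4 and 18.8 CPM in wild type and 21.1, 20.9 and 21.7 CPM in Sp9 null. Its groups did not overlap, but it did not pass (log2 fold change 0.23 with standard error 0.12 under the block, edgeR adjusted p = 0.349).

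Gabrb1, a beta subunit gene of GABA-A receptors at a low level, had the largest difference of the 38 genes. It lies on chromosome 5 (71658113 to 72149037). Its counts were 25, 13 and 33 in wild type and 43, 35 and 59 in Sp9 null 1, 2 and 3, or 2.38 ± 1.09 and 5.25 ± 1.78 CPM (SD, n = 3). The groups overlapped only in that Sp9 null 2, at 3.19 CPM, lay below wild type 3, at 3.33 CPM. The log2 fold change was 1.18 (standard error 0.27), with an edgeR adjusted p = 0.00661 under the block and 0.782 in the fit without it. Values of similar size, but not called, were found without pair 3 (log2 fold change 1.34, edgeR adjusted p = 0.0642) and by DESeq2 with the block (1.21, adjusted p = 0.280). Gabra4, its neighbour, overlaps it by 196 bases and did not pass, with a log2 fold change of 0.50 (standard error 0.33) under the block, at an edgeR adjusted p = 0.453.

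The other 12 tested GABA-A genes did not pass. Gabra2 came nearest, with 20.9, 9.80 and 25.5 CPM in wild type and 28.3, 11.5 and 34.3 CPM in Sp9 null, and a log2 fold change of 0.40 (standard error 0.12) under the block, at an edgeR adjusted p = 0.0540. Across Gabra3, Gabra5, Gabrb2, Gabrg1, Gabrg3, Gabre and Gabrq the blocked log2 fold changes ran from -0.38 for Gabra5 to 0.81 for Gabrg1. Some reads of Gabra5 could belong to a gene that overlaps it, so its value is uncertain.

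**Figure D4:**
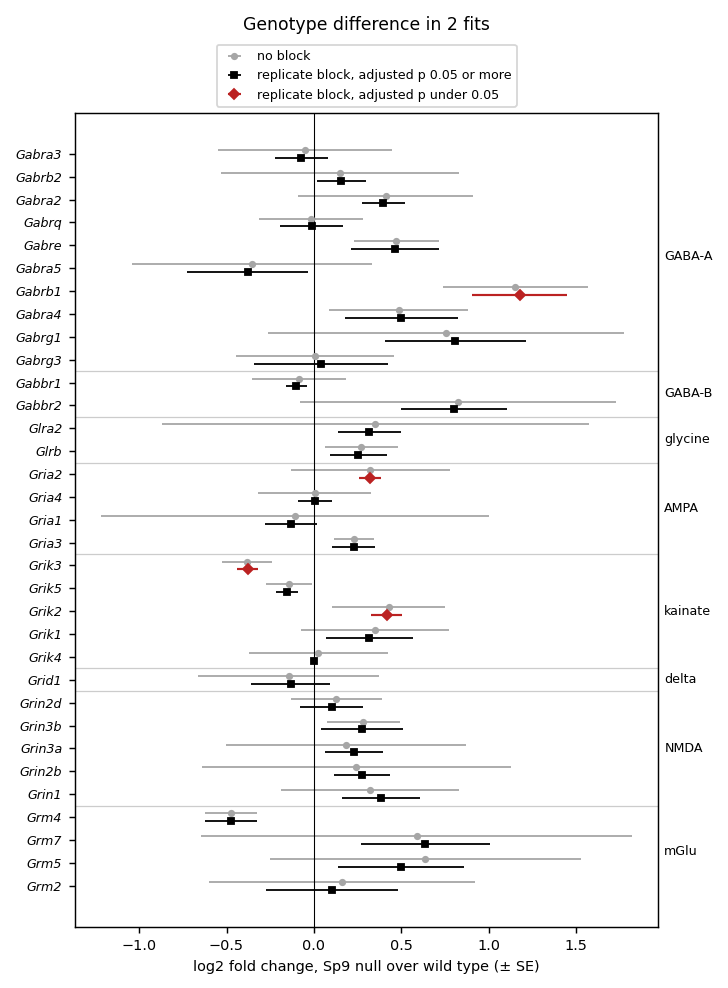
Log2 fold change of Sp9 null over wild type with its standard error for 33 of the 38 tested receptor genes, without the replicate block (grey) and with it (black, or red where the edgeR adjusted p was under 0.05). Gabrb1, Gria2 and Grik2 lie right of 0 and Grik3 left of it; grey bars are wider for most genes, and no bar is drawn for Grik4 with the block, whose fold change was too near 0 for a standard error.

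GABA-B and glycine receptor genes did not pass. Gabbr2 had 27, 6 and 36 counts in wild type and 37, 7 and 60 in Sp9 null, with a log2 fold change of 0.80 (standard error 0.30) under the block, at an edgeR adjusted p = 0.143. Gabbr1, at 213, 146 and 232 CPM in wild type and 204, 121 and 225 CPM in Sp9 null, had -0.10 (95% interval -0.22 to 0.02 with the block). Glra2 and Glrb had 0.32 (standard error 0.18) and 0.25 (standard error 0.16) with the block.

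Grm4 was lower in every Sp9 null library but did not pass. It was at 14.9, 15.6 and 14.5 CPM in wild type and at 9.23, 10.8 and 11.7 CPM in Sp9 null 1, 2 and 3, so the groups did not overlap. The log2 fold change was -0.48 (standard error 0.15), with an edgeR adjusted p = 0.0634 under the block and 0.646 in the fit without it. It was among the 4 receptor genes in which number 2 was not the lowest in both genotypes. Grm2, Grm5 and Grm7 had 0.10, 0.50 and 0.64 with the block, with standard errors of 0.36 to 0.38. Without the block their standard errors were 0.76, 0.89 and 1.23. The blocked value of Grm5 ran from 0.14 to 0.89 when a pair was left out.

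All 5 tested NMDA genes had positive log2 fold changes with the block, from 0.10 for Grin2d to 0.38 for Grin1, and 0 of them passed in either edgeR fit, even at an unadjusted p under 0.05. Grin2d had 83, 79 and 94 counts in wild type and 74, 63 and 104 in Sp9 null. Grin3b had 39, 48 and 51 counts in wild type and 44, 56 and 46 in Sp9 null. The delta receptor gene Grid1 had 57, 30 and 88 counts in wild type and 46, 26 and 64 in Sp9 null. Its log2 fold change was -0.13 (standard error 0.22) with the block.

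**Figure D5:**
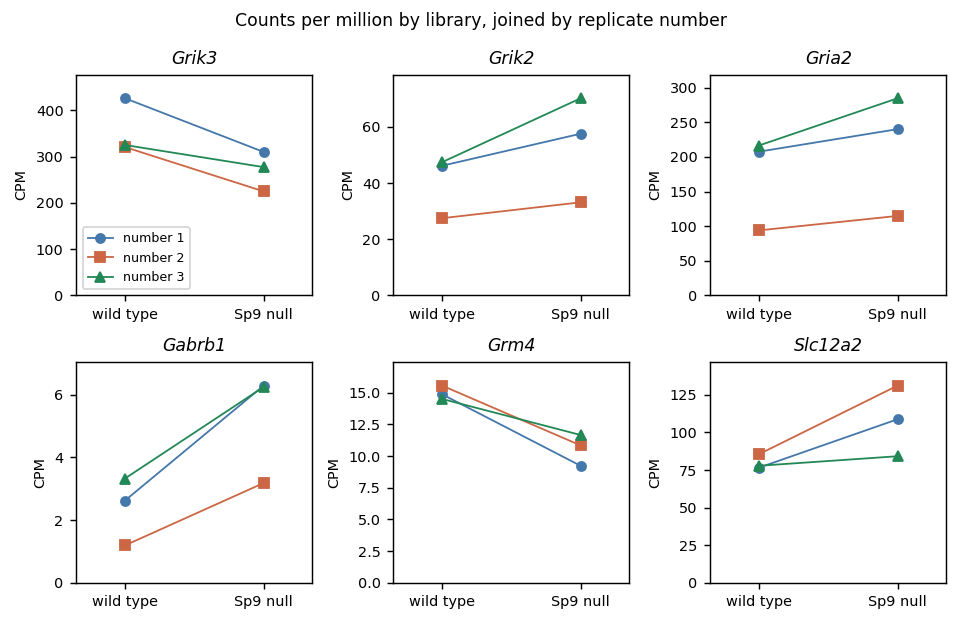
CPM by library of Grik3, Grik2, Gria2, Gabrb1, Grm4 and the chloride cotransporter gene Slc12a2, with lines joining the wild type and Sp9 null libraries of the same number. All 3 lines of Grik3 and Grm4 go down and all 3 lines of the other 4 genes go up, and for Grik2, Gria2 and Gabrb1 the line of number 2 lies below the other lines.

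Over the 38 genes, Sp9 null values were higher than wild type for 29 (76.3%) without the block, with a median log2 fold change of 0.23. Over all genes tested the share was 48.9% and the median -0.005. With the block it was also 29, with 27, 31 and 25 when pair 1, 2 or 3 was left out. In the fit without the block it depended on single libraries, whose removal leaves the numbers unbalanced between the genotypes. Without wild type 2 the count was 17 and the median -0.13, and without Sp9 null 3 they were 16 and -0.18. Leaving out Sp9 null 1 gave a median of 0.12, wild type 1 gave 0.34, wild type 3 gave 0.39 and Sp9 null 2 gave 0.53. With the block the median was 0.23, and 0.09 without pair 3. With both libraries of number 2 left out, an alternative added after the data were seen, the count was 30 and the median 0.28. Within the 3 same-numbered pairs, 9 of 38 genes were higher in Sp9 null in all 3 (23.7%), against 15.7% of all genes tested, and 6 were lower in all 3 (15.8%), against 22.6%. The CPM ranges of the genotypes did not overlap for 1 tested gene that was higher in Sp9 null, Gria3, where the share of all genes was 4.95%. They did not overlap for 2 that were lower, Grik3 and Grm4, where it was 8.06%. Together these are 3 of 38 (7.89%), against 13.0% of all genes tested.

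The promoters of the 4 genes called with the block are shown. None of the 4 was called without the block or without pair 2. Sp9 belongs to the Sp family, a family known for binding GC boxes. Each sequence is the 250 bases before the RefSeq start on GRCm38.p6, 5′ to 3′ on the gene's strand, with the GC box GGGCGG, searched on both strands, in capitals. The positions are chr4:125490446-125490695 on the plus strand for Grik3, chr10:49788755-49789004 on the minus strand for Grik2, chr3:80802836-80803085 on the minus strand for Gria2 and chr5:71657671-71657920 on the plus strand for Gabrb1, the first of 2 starts listed for that gene.
Grik3: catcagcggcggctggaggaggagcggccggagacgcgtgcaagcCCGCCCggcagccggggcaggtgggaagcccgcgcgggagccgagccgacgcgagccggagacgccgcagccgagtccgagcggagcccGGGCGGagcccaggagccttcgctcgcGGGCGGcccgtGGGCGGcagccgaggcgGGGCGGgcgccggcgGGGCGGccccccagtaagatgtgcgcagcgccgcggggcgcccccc
Grik2: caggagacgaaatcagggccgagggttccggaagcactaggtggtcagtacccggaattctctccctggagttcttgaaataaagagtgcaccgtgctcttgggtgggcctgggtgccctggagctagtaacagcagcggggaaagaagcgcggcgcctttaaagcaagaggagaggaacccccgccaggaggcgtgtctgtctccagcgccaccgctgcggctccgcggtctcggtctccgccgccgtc
Gria2: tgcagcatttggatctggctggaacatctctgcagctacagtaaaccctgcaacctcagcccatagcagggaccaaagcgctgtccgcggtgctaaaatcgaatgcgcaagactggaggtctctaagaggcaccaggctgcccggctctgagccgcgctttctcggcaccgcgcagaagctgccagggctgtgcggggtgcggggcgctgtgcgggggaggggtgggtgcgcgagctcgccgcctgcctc
Gabrb1: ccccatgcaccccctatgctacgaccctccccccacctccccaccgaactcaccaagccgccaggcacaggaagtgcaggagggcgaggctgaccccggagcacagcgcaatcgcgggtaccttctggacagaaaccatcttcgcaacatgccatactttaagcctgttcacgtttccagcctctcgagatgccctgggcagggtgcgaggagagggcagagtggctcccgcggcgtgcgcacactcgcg
The Grik3 window held 6 matches and 82.0% G and C. The windows of Grik2, Gria2 and Gabrb1 held 0 matches, with 62.8%, 64.8% and 64.4% G and C. In the RefSeq table, 36 of the 52 receptor genes were matched by symbol, with 43 promoters, of which 21 (48.8%) held the motif. Among receptor genes that were not called, Gabre, Grm2 and Grin2c held 3 matches each, and Grin2c was not tested. Over all 32851 promoters of that length 32.7% held it, and 0.89% held 6 or more matches. The median G and C share of all these windows was 52.4%. A match describes the letters of a window and is not a binding site, and binding of Sp9 was not measured.

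Genes whose products assemble, anchor or serve these receptors were described from 6 lists with 49 genes in the table, of which 45 were tested. Without the block 0 were called, and 1 had an unadjusted p under 0.05. By DESeq2 without the block and by limma on FPKM 0 were called. With the block 1 rose and 1 fell, or 4.44% against 4.0% of all genes tested. The median log2 fold change was 0.01 in both fits.

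Slc12a2, which encodes the chloride importer NKCC1 that makes GABA depolarising in immature neurons, rose with the block. It was at 76.6, 85.5 and 77.8 CPM in wild type and 109, 131 and 84.2 CPM in Sp9 null 1, 2 and 3. The ranges overlapped only between wild type 2 and Sp9 null 3. The log2 fold change was 0.44 (standard error 0.08), with an edgeR adjusted p = 0.00153 under the block and 0.765 in the fit without it. It was also called by DESeq2 with the block (adjusted p = 0.0231), and the call was lost without pair 2 (edgeR adjusted p = 0.221). The exporter gene Slc12a5, whose product lowers chloride as neurons mature, was at 43.1, 21.1 and 42.7 CPM in wild type and 45.4, 16.4 and 44.1 CPM in Sp9 null. Its log2 fold change was -0.04 (standard error 0.10) with the block. In FPKM, Slc12a5 was at 0.0684 to 0.308 times Slc12a2 in the 6 libraries.

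Dlg4, which encodes the postsynaptic scaffold PSD-95, fell by 0.24 on the log2 scale with the block (standard error 0.07, edgeR adjusted p = 0.0252). It was at 149, 93.8 and 155 CPM in wild type and 126, 70.1 and 139 CPM in Sp9 null, and the edgeR adjusted p was 0.431 when pair 2 and 0.0820 when pair 3 was left out. DESeq2 with the block gave 0.546. In the other 4 lists edgeR called 0 genes in either fit, and unadjusted p fell below 0.05 for 0 genes of these lists in the unblocked and for 1 to 3 per list in the blocked fit. Among 9 tested GABA and glycine receptor partners, the most abundant were Gabarap, at 41.9 FPKM in wild type and 37.5 in Sp9 null, and Nlgn2, at 32.5 and 30.0. Of 11 AMPA auxiliary subunit genes these were Cnih2, at 51.0 and 47.6 FPKM, and Cacng7, at 45.4 and 43.4. Of 4 tested kainate and delta receptor partners they were Neto2, at 20.2 and 22.3 FPKM, and Neto1, at 5.35 and 6.76. Of 6 tested glycine and glutamate transporter genes they were Slc1a2, at 3.88 and 3.46 FPKM, and Slc1a3, at 3.56 and 3.45. Cnih2 and Cacng7 had a higher mean FPKM than any AMPA subunit gene, an order that depends on the length scaling. By mean CPM, Gria2 was above both, at 173 in wild type and 213 in Sp9 null. Cacng7 was at 124 and 119 CPM, and Cnih2 at 63.0 and 58.8 CPM.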

How the data were processed

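RNA-seq of 6 MGE libraries was analysed, 3 wild type and 3 Sp9 null. The authors deposited raw counts and FPKM values for each gene, per the file headers. TopHat, Cufflinks 2.1.1 and the build GRCm38.p4 are listed, without roles, per the submitters' processing notes, and no source used here names the counting program. No sample column was left unused (0). The members and gene lists were chosen with earlier results of these data known.

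Counts were tested with edgeR 4.0.16 in R 4.3.3 (quasi-likelihood, TMM, default filter, robust dispersions, two-sided, Benjamini-Hochberg adjustment over 14929 genes). Standard errors were derived from each log2 fold change and its F statistic. Named were the receptor genes, in full those called in either fit and the 2 highest by FPKM per class, and the partner genes called or the 2 highest by FPKM per list. Some receptor genes that this rule selects are not reported here by name; all counts and medians over the receptor genes include them. The scripts were tested on simulated data. Alternatives used DESeq2 1.42.0 and limma 3.58.1 on log2(FPKM + 0.1). The labels do not say that samples are separate embryos, so the p-values reflect only differences between libraries, which may be technical.

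Deviations from the genotype mean correlated by 0.342, 0.754 and 0.568 between libraries numbered 1, 2 and 3. Since each exceeded 0.1, same-numbered libraries were treated as pairs. The pairing comes from the data, since the labels do not say what a number marks. Wild type 1 with Sp9 null 3 (0.379) and wild type 3 with Sp9 null 1 (0.238) also exceeded 0.1.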

Additional observations from a re-analysis of the deposited data

How the results depend on the processing

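The count of called receptor genes was 0 without the block and 4 with the replicate block. It was 2 by DESeq2 with the block (Gria2 and Grik3), and with the block it was 4, 0 and 1 without pair 1, 2 and 3 (Grik3 in the last). For the partner genes the counts were 0 without and 2 with the block, 1 by DESeq2 with the block, and 5, 0 and 1 without pair 1, 2 and 3. Without the block both counts stayed at 0 with each library left out in turn, with both libraries numbered 2 left out (chosen after seeing the data), with other size factors, without the expression filter, by DESeq2 and by limma on FPKM with a pseudocount of 0.1 or 1. The cause of the lost calls was not tested; each fit without a pair has fewer libraries. No called gene changed its direction, while 13 of 38 uncalled log2 fold changes differed in sign without Sp9 null 3 and 12 without wild type 2. Limma with its filter held 26 receptor genes. The block changed no other receptor or partner call. Without the filter edgeR tested 50 receptor genes, among them the 12 of the 14 low genes with any count, and called 0. The CPM ranges of 3 of the 14 did not overlap, those of Gabra6, Grm8 and Gabrr2.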
